A study of Rattus norvegicus with 9 samples.

Results

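The nuclear-encoded subunits of the mitochondrial respiratory chain were followed in RNA of RBL-2H3, a cultured line from a rat basophilic leukemia that serves as a mast cell (MC) model. They were taken as all genes whose symbol starts with Nduf and a subunit letter and number, is Sdha to Sdhd, or starts with Uqcr, Cox4 to Cox8 or Atp5. Of 88 rows with such a symbol, 82 had values, out of 18006 genes with values in all. Complex I had 38 of the 82, with Ndufa4 and Ndufa4l2 counted there by their symbol, complex II 4, complex III 8, complex IV 15 and complex V 17.

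There were 9 samples, 3 per group. The IgE/DNP samples (DNP) received by the labels anti-DNP IgE at 50 ng/mL over 12 h and afterwards the antigen DNP-HSA at 100 ng/mL for 4 h. The PF samples had the same treatment after 1 h of pretreatment with PF, which neither the labels nor the methods identify, and one label field gives them stimulation times of 4, 5 and 6 h where another gives 4 h for all. The control samples (Ctrl) are called untreated in one field, while the protocol that all 9 samples share gives sensitization and antigen, which leaves unsettled whether IgE was given to them. All groups are 1 cell line, and nothing in the labels says that replicates were separate cultures, so p-values measure the spread between these samples only, which may be technical. In bulk RNA, fewer cells of a type and less RNA per cell cannot be told apart.

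Values are FPKM, fragments per kilobase of gene and per total of mapped fragments, so levels of different genes can be set side by side. Their sums over all genes lay between 573023 and 591539 in the 6 Ctrl and DNP samples and between 610206 and 630069 in the 3 PF samples. The labels name peripheral blood as tissue, but 11 of 13 mast cell and basophil markers had values and all 11 were at 1 FPKM or more in every sample, with sums of 5482 to 5627 in Ctrl, 5371 to 5473 in DNP and 5538 to 5771 in PF. Srgn alone had a mean of 2846 FPKM, so these sums say little of the other markers. Single markers differed between groups in both directions. Gata2 was at 386 to 396 FPKM in Ctrl and 293 to 295 in PF, and Fcer1g at 702 to 729 in Ctrl and 786 to 824 in PF. Of 21 markers of other cells, 16 had values and 15 of these had a mean under 1 FPKM. The T cell gene Cd3e was the exception, with a mean of 8.28 FPKM, and the sums of the list ranged from 9.91 to 12.7 FPKM over the 9 samples.

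The respiratory chain sits in the inner mitochondrial membrane. Complex I (NADH dehydrogenase) and complex II (succinate dehydrogenase) pass electrons to ubiquinone, complex III passes them to cytochrome c and complex IV to oxygen, and complexes I, III and IV pump protons that drive ATP synthesis by complex V. Complex II is built from nuclear-encoded subunits alone and is also an enzyme of the TCA cycle. The other complexes join nuclear-encoded subunits to a few encoded in mitochondrial DNA, which were not analysed here. In MCs the chain supplies ATP for degranulation and cytokine production.

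Chain genes were among the more abundant of these cells. The median member had a mean of 117 FPKM over the 9 samples, against 14.04 FPKM over the 10504 genes that reached 1 FPKM in 3 samples or more, which put it at percentile 92.5 of these genes. Of the 82 members, 42 had a mean of at least 100 FPKM and 73 of at least 30 FPKM. By complex, the median of the members' means was 77.6 FPKM in complex I, 80.5 in complex II, 108 in complex III, 319 in complex IV and 254 in complex V.

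Counted by symbol, complex V had both the highest and the lowest tested member. Atp5f1b, the catalytic beta subunit, had values of 1118, 1145 and 1143 FPKM in Ctrl, 1163, 1174 and 1198 in DNP and 1337, 1320 and 1353 in PF. Atp5if1, the inhibitory factor that blocks ATP hydrolysis by the complex, and Cox6a1, the broadly expressed form of a complex IV subunit, followed with means of 692 and 560 FPKM. Atp5s, which RefSeq calls Dmac2l, was lowest with a mean of 3.34 FPKM, and the next were Ndufs5 at 28.6 and Ndufs4 at 31.2 FPKM. Levels within a complex were far from equal. The beta subunit stood at between 4.06 and 4.32 times the level of the alpha subunit Atp5f1a in every sample, while both enter the complex in the same number.

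Among subunits with tissue-specific copies, the broadly expressed form had the higher level. Cox4i1 had a mean of 526 FPKM and Cox4i2 one of 0.022, Cox6b1 one of 399.9 and the testis form Cox6b2 one of 0.017, and Ndufa4, which is now assigned to complex IV, one of 377 against 0.049 for Ndufa4l2. Cox6a1, Cox7b and Cox8a had means of 560, 229 and 390.0 FPKM, while their relatives Cox6a2, Cox7b2, Cox8b and Cox8c had rows but no values, as had Ndufb1 and Cox6c-ps1. Cox7a2 had a mean of 92.2 FPKM, the row called Cox7a1 one of 0.366, and the gene to which RefSeq gives the name Cox7a1, listed under a LOC symbol, between 2.09 and 3.23 FPKM in the 9 samples. The 3 genes Atp5mc1, Atp5mc2 and Atp5mc3 encode the same mature c subunit of the complex V rotor ring, and all of them were used. Atp5mc2 gave 42.8% ± 1.34 (SD, n = 3) of their summed FPKM in Ctrl, 42.9% ± 1.04 in DNP and 40.6% ± 0.688 in PF. Atp5mc1 gave 32.7% ± 2.09, 33.7% ± 0.376 and 34.9% ± 0.435, and Atp5mc3 made up the rest with 24.5% ± 0.811, 23.4% ± 0.669 and 24.5% ± 0.872.

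**Figure D1:**
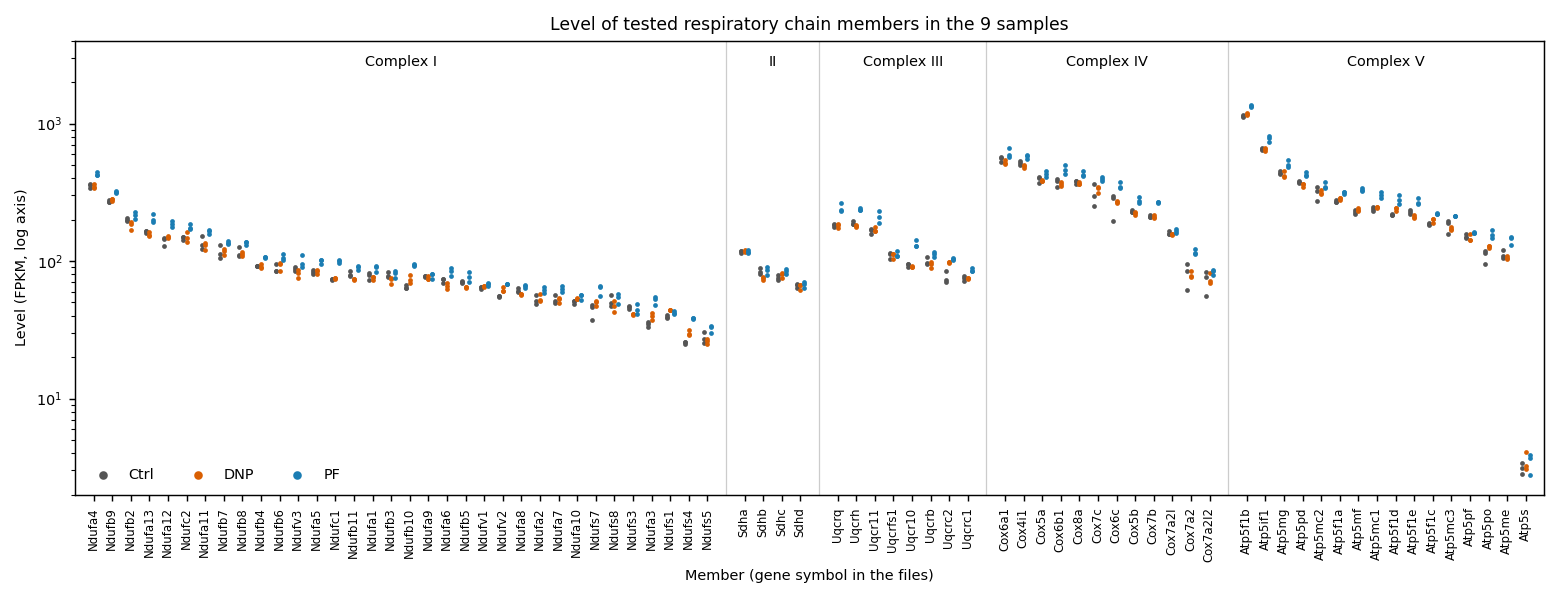
Level of 74 of the 75 tested members in the 9 samples, in FPKM on a log axis, ordered by mean within each complex; each point is 1 sample, coloured by group. Atp5f1b stands highest at a mean of 1217 FPKM and Atp5s lowest at 3.34, and PF points lie above the DNP points for most members.

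Of the 82 members, 75 passed the filter, which asked for 1 FPKM or more in 3 or more of the 6 samples compared. The 7 below it were Ndufa10l1, Ndufa4l2, Ndufs6, Cox4i2, Cox6b2, Cox7a1 and Atp5f1. For some of these the symbol is outdated. The row called Ndufs6 carries the identifier that RefSeq gives to the pseudogene Ndufs6-ps1, and the identifier of Ndufs6 itself stands under a LOC symbol, at 45.8, 47.6 and 51.7 FPKM in Ctrl, 48.7, 43.8 and 52.8 in DNP and 49.8, 52.2 and 47.2 in PF. The 3 groups of the latter overlap. The row called Atp5f1 is the gene of the peripheral stalk subunit b, Atp5pb in RefSeq. It was listed at 0 in 8 samples and at 13.03 FPKM in PF replicate 2, and a 0 in these files can be a failed estimate.

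Many chain genes have pseudogene copies in the genome. RefSeq names a pseudogene for 39 of the 82 members (47.6%), against 7.22% of all protein-coding genes, and of their 91 pseudogenes 4 have a row in the files and 3 have values. Reads of such copies may have been shared out between them and the gene, so levels of these members are uncertain. The copy Ndufs5-ps2 was listed at 247, 237 and 247 FPKM in the Ctrl samples, where Ndufs5 was at 30.6, 25.2 and 27.1. The level of Ndufs5, an accessory complex I subunit, is therefore uncertain.

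Promoters of the members are shown for 5 genes: Uqcrc2, the member with the largest difference between DNP and Ctrl, Cox7a2, Uqcr10 and Atp5mf, which are among the members furthest apart between PF and DNP, and Sdhb, a complex II subunit that was picked because its promoter holds a pair of motifs. The windows run from 250 bases before to 50 bases after the start of the gene, are read 5′ to 3′ on the gene's strand, and come from RefSeq with the build GRCr8. Capitals mark matches on either strand to 4 motifs known from promoters of mitochondrial genes: GCGCATGC, the core of the NRF1 site; CCGGAAG, bound by ETS factors such as GABP; AAGATGGC, bound by YY1; and GGGCGG, the GC box. No motif lies inside another.
Uqcrc2 (GRCr8 chr1:184598990-184599289, plus strand): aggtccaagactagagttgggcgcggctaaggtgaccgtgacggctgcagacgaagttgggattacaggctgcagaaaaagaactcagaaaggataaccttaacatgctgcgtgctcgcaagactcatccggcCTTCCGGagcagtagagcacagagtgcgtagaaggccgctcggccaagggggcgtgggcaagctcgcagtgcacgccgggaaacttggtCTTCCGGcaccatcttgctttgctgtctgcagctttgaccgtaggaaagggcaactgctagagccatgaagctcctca
Cox7a2 (GRCr8 chr8:89601100-89601399, minus strand): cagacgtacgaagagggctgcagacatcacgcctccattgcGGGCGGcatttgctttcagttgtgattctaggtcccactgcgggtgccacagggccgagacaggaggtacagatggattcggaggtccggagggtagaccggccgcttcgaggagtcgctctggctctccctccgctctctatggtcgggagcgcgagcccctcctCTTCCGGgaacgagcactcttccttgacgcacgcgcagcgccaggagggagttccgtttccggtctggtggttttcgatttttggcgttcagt
Uqcr10 (GRCr8 chr14:83791865-83792164, minus strand): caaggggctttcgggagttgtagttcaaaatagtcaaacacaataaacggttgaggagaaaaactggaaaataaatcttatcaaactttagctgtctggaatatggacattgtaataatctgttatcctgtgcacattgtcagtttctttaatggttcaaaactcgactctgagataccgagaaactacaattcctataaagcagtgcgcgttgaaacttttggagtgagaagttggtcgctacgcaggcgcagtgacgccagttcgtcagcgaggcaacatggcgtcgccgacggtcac
Atp5mf (GRCr8 chr12:14535185-14535484, plus strand): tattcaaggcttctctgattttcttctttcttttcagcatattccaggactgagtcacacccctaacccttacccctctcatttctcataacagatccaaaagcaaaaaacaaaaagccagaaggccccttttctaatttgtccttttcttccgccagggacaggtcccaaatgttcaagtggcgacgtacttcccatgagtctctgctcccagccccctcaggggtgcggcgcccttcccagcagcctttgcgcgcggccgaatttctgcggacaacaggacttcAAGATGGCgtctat
Sdhb (GRCr8 chr5:158547684-158547983, plus strand): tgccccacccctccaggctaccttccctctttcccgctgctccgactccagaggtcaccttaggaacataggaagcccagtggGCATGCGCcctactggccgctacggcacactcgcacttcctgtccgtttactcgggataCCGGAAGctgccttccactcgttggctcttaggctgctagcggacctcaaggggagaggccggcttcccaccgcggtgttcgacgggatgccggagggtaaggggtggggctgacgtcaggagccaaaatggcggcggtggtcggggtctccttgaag
Uqcrc2 holds the ETS letters at 2 places. Cox7a2 holds them once, at base 208 of the window, and a GC box at base 42. Atp5mf holds the YY1 letters just past the start of the gene, and Sdhb holds the NRF1 and the ETS letters. The window of Uqcr10 holds none of the 4 motifs, nor does that of Sdha, which is not printed. The table gave a promoter for 67 of the 75 tested members, and 20 of the 67 hold none of the 4. The ETS letters were in 20 of the 67 (29.9%), against 9.22% of all 27457 promoters and 22.8% of those of genes with a mean of at least 30 FPKM. The YY1 letters were in 14 (20.9%), against 3.44% and 8.10%, and the NRF1 letters in 8 (11.9%), against 2.66% and 6.84%. The GC box was in 27 (40.3%), against 34.9% and 66.2%. A match is only a match of letters in this window and does not show that a factor binds.

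The first comparison asked what antigen stimulation did to chain transcripts, DNP against Ctrl. Most members did not pass the test. In limma on log2(FPKM + 1) over 10392 genes, 7 of the 75 members were higher in DNP and 5 were lower at an adjusted p of at most 0.05. These are 9.33% and 6.67% of the members, while over all genes tested 14.7% were higher and 14.4% were lower. The median log2 fold change of the members was -0.01, the same as the median of all genes, with a range from -0.17 to 0.36. Of the 12 called members, 9 were among the 35 tested of complex I, 1 among 4 of complex II, 1 among 8 of complex III and 1 among 16 of complex V. In complex I 14.3% were higher and 11.4% lower, both below the shares over all genes. In limma none of the 12 tested complex IV members was called, and at an unadjusted p under 0.05 there was 1, which was lower.

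Uqcrc2, core protein 2 of complex III, changed most. The Ctrl samples had 70.4, 73.1 and 84.7 FPKM and the DNP samples 96.3, 98.8 and 98.4. Every DNP sample was above every Ctrl sample, and Ctrl replicate 3 was the nearest. The means were 76.1 ± 7.58 and 97.8 ± 1.39 FPKM (SD, n = 3), a ratio of 1.29, with a log2 fold change of 0.36 ± 0.06 (SE, limma adjusted p = 0.0041). Its partner core protein Uqcrc1 gave -0.0006 ± 0.04 (limma adjusted p = 0.99), and the Rieske iron-sulfur protein Uqcrfs1 gave -0.02 ± 0.05 (adjusted p = 0.84). Cytochrome c1 (Cyc1), the core subunit of complex III that the symbols of the members do not cover, was at 69.8, 80.3 and 80.9 FPKM in Ctrl and 85.03, 88.2 and 87.2 in DNP, without overlap (0.17 ± 0.06, adjusted p = 0.049). Its call was lost on leaving out any 1 of Ctrl replicates 1 and 2 and DNP replicates 1, 2 and 3, with adjusted p up to 0.13.

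Of the 6 other members called higher, 5 were of complex I and 1 of complex V. Ndufs4, an accessory subunit whose loss causes Leigh syndrome, rose from 24.8, 25.6 and 25.9 FPKM in Ctrl to 31.7, 28.9 and 29.6 in DNP, with no overlap (log2 fold change 0.23 ± 0.05, limma adjusted p = 0.0072). Ndufa3 and Ndufb10, small accessory subunits of the membrane arm, rose by 0.19 ± 0.05 and 0.18 ± 0.05 on the log2 scale (limma adjusted p = 0.024 and 0.035). Ndufv2 and Ndufs1, iron-sulfur proteins of the module that oxidizes NADH, rose by 0.16 ± 0.04 and 0.14 ± 0.04 (adjusted p = 0.012 and 0.017). The flavin-binding subunit of that module, Ndufv1, was not called at 0.02 ± 0.03 (adjusted p = 0.60). In complex V, Atp5f1d, the delta subunit of the central stalk, rose by 0.15 ± 0.03 (limma adjusted p = 0.013), a call lost without DNP replicate 1 or 2 (adjusted p up to 0.054). Atp5po, which links the peripheral stalk to the head, had a larger log2 fold change of 0.23 ± 0.08 but was not called (adjusted p = 0.054), with Ctrl replicate 1 at 94.65 FPKM below the other Ctrl samples at 119 and 115. Atp5f1d and Atp5po were picked after their values were seen.

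The 5 members that fell were of complexes I and II. Ndufs3, a core subunit of the arm that reaches towards ubiquinone, was at 47.2, 46.6 and 44.9 FPKM in Ctrl and 41.1, 41.5 and 40.2 in DNP, again without overlap (log2 fold change -0.17 ± 0.04, limma adjusted p = 0.0093). Sdhb, the iron-sulfur subunit of complex II, was at 82.5, 88.3 and 80.1 FPKM in Ctrl and at 75.8, 73.1 and 77.04 in DNP, so all DNP values were lower (log2 fold change -0.15 ± 0.04, adjusted p = 0.033). The accessory complex I subunits Ndufa6, Ndufb5 and Ndufb11 fell by between 0.13 and 0.15 on the log2 scale (adjusted p = 0.047, 0.018 and 0.038). Of the 11 members called here other than Atp5f1d, Uqcrc2, Ndufs4, Ndufv2 and Ndufs3 were the 4 called whichever sample was left out, and the others lost the call without at least 1 sample, with adjusted p up to 0.15 in limma. Without DNP replicate 1, 2 or 3, the number of called members went from 12 to 5, 6 or 7, and without Ctrl replicate 2 there were 2 lower members in place of 5. Over all genes the number called also fell, from 3031 to 2226, 2108 or 2099. Without Ctrl replicate 2 the number lower over all genes was 1089 in place of 1501.

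**Figure D2:**
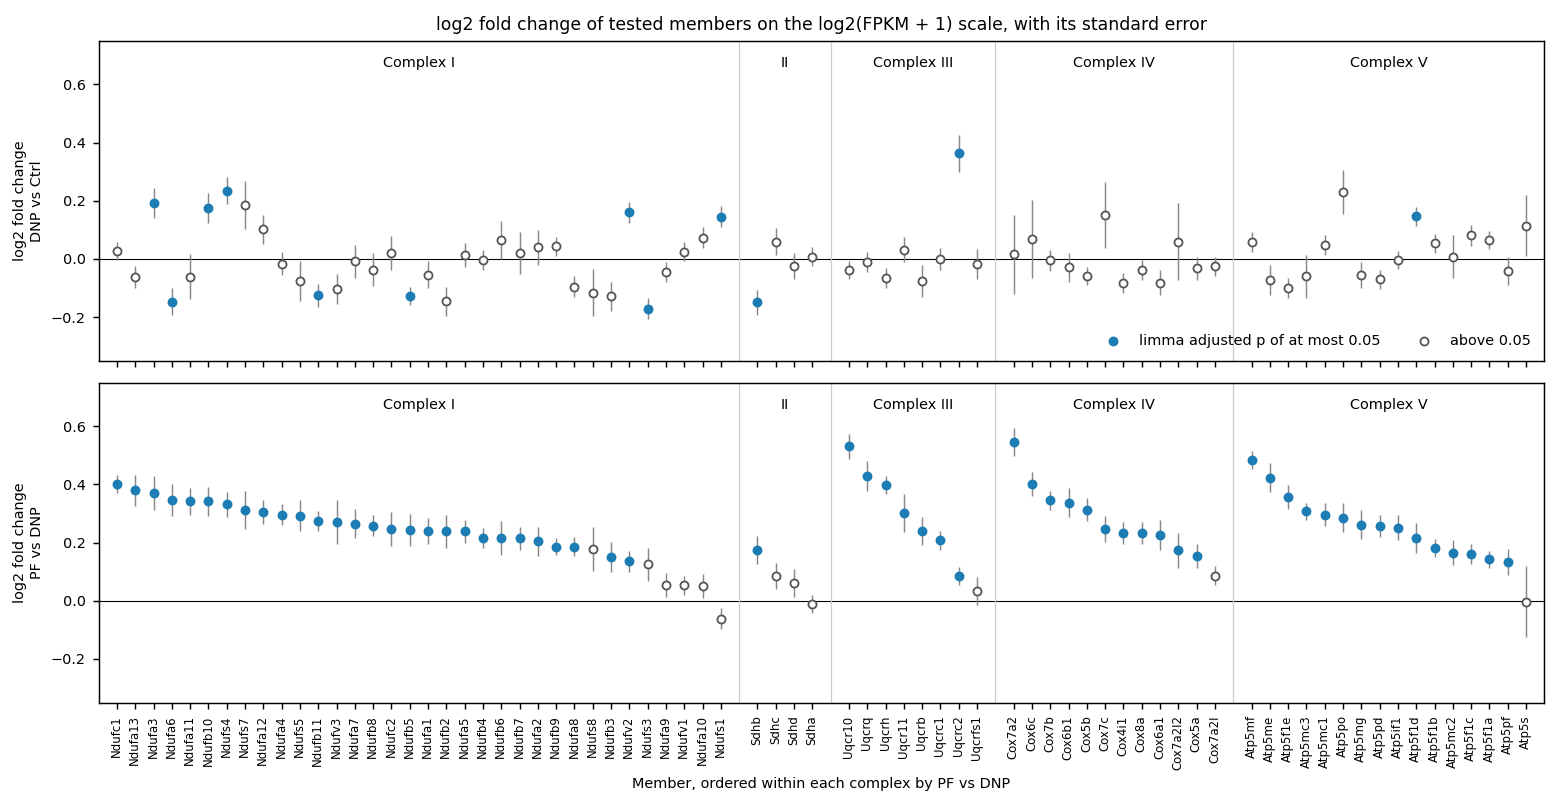
log2 fold change of 74 of the 75 tested members in DNP vs Ctrl (top) and PF vs DNP (bottom) on the log2(FPKM + 1) scale; bars are standard errors and filled points have a limma adjusted p of at most 0.05. In DNP vs Ctrl 12 points are filled and lie on both sides of 0. In PF vs DNP 62 are filled and all lie above 0, with complex II nearest to 0. With samples scaled to the mean sum 47 are higher and 2 lower in PF vs DNP, beside 8.42% and 41.7% of all genes.

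The second comparison set PF against DNP, that is, antigen stimulation with and without PF pretreatment. Here 62 of the 75 members were higher in PF in limma and 0 were lower, also at an unadjusted p under 0.05, while 18.1% of the 10329 genes tested were higher and 30.7% were lower. The median log2 fold change of the members was 0.24, with a range from -0.06 to 0.55, against -0.04 over all genes. Of 3046 other genes with a mean of at least 30 FPKM, 35.8% were higher and their median was 0.05 (this group was formed after values were seen). In 63 members every PF sample was above every DNP sample, which held for 22.3% of all genes tested. The largest ratio of means was 1.47.

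Most members were higher under each scaling of the samples that was run, but their number changed. With median ratios, 68 members were higher and 0 lower, with a median of 0.30, beside 26.7% higher and 25.2% lower over all genes. With each sample scaled to the mean sum, 47 were higher and 2 were lower (Ndufs1 and Sdha), with a median of 0.14. Over all genes 8.42% were higher and 41.7% lower in that setting. Among all called genes the share higher in PF was 37.1% as deposited, 51.5% with median ratios and 16.8% with the mean sum, a setting that moved the median of all genes to -0.13. Relative to the median of all genes, the members' median was 0.28, 0.28 and 0.27 in the 3 settings. The summed FPKM of the PF samples was also higher than that of all other samples, and its part in the result was not tested.

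By complex, 28 of 35 complex I members were higher, 1 of 4 in complex II, 7 of 8 in complex III, 11 of 12 in complex IV and 15 of 16 in complex V. Over all genes 18.1% were higher. With the mean sum 22, 0, 6, 9 and 10 members of complexes I to V were higher, beside 8.42% of all genes. In that setting 1 member each of complexes I and II was lower, beside 41.7% of all genes. The members of complexes I, III, IV and V had medians of 0.24, 0.27, 0.24 and 0.25. Complex II had a median of 0.07, which became -0.03 with the mean sum. Whether complex II differed from the others was not tested.

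Cox7a2, the broadly expressed form of a small complex IV subunit, had the largest difference. It was at 77.5, 84.6 and 77.05 FPKM in DNP and at 115, 123 and 113 in PF. The PF samples lay well above the DNP samples and above the Ctrl samples, which were spread over 83.9, 94.9 and 61.4. The log2 fold change from DNP was 0.55 ± 0.05 and the ratio of means 1.47 (limma adjusted p = 2.81e-05). Its relative Cox7a2l, which joins complexes III and IV in supercomplexes, was not called, at 0.09 ± 0.03 (adjusted p = 0.060).

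In complex III the small subunits were the furthest apart. Uqcr10 was at 91.4, 90.8 and 91.2 FPKM in DNP and 128, 141 and 128 in PF, with the Ctrl samples at 94.97, 90.9 and 94.7, close to DNP (log2 fold change 0.53 ± 0.04, limma adjusted p = 1.65e-05). Uqcrq, another small subunit, was at 185, 183 and 173 in DNP and 232, 263 and 235 in PF (0.43 ± 0.05, adjusted p = 1.77e-04). Among the large subunits, Uqcrc1 rose by 0.21 ± 0.03 (adjusted p = 8.64e-04). Uqcrc2 was called at 0.09 ± 0.03 (adjusted p = 0.044), but it lost the call on leaving out any 1 of DNP replicates 1, 2 and 3 and PF replicates 1 and 3, with adjusted p up to 0.15, and it was at -0.01 with the mean sum. Uqcrfs1 was not called, at 0.03 ± 0.05 (adjusted p = 0.61).

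In complex V the membrane subunits f and e were the furthest from DNP. Atp5mf (subunit f) was at 235, 233 and 241 FPKM in DNP and 328, 341 and 325 in PF, a gap far larger than the spread in either group (log2 fold change 0.48 ± 0.03, limma adjusted p = 5.49e-06). Atp5me (subunit e) was at 106, 109 and 103 FPKM in DNP and 132, 149 and 147 in PF (0.42 ± 0.05, adjusted p = 1.62e-04). In the catalytic head, Atp5f1a, Atp5f1b and Atp5f1c, the alpha, beta and gamma subunits, rose by 0.14 ± 0.03, 0.18 ± 0.03 and 0.16 ± 0.03 (adjusted p = 0.0036, 0.0013 and 0.0037), and in each of them every PF sample was above every DNP sample. The c subunit genes Atp5mc1, Atp5mc2 and Atp5mc3 rose by 0.30 ± 0.04, 0.17 ± 0.04 and 0.31 ± 0.03 (adjusted p = 2.89e-04, 0.013 and 4.95e-05).

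In complex IV, 11 of 12 tested members rose. Cox4i1, its largest nuclear-encoded subunit, was at 489, 476 and 496 FPKM in DNP and 578, 594 and 548 in PF (0.23 ± 0.04, limma adjusted p = 9.28e-04). Cox5a and Cox5b, which lie on the matrix side, rose by 0.15 ± 0.04 and 0.31 ± 0.04 (adjusted p = 0.012 and 2.96e-04). Cox6b1, which faces the intermembrane space, rose by 0.34 ± 0.05 (adjusted p = 6.36e-04), Cox7b by 0.35 ± 0.03 (adjusted p = 4.98e-05), Cox8a by 0.23 ± 0.04 (adjusted p = 9.02e-04) and Cox6a1 by 0.23 ± 0.05 (adjusted p = 0.0064). Ndufa4, which is counted with complex I here and is not among these 12, rose by 0.30 ± 0.04 (adjusted p = 2.25e-04).

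In complex II, 1 of 4 subunits was called. Sdha, the flavoprotein that oxidizes succinate, was at 114, 119 and 118 FPKM in Ctrl, 117, 116 and 119.6 in DNP and 116, 119.6 and 115 in PF. The 3 groups overlap, and the log2 fold change from DNP to PF was -0.01 ± 0.03 (limma adjusted p = 0.80). The membrane anchors Sdhc and Sdhd gave 0.09 ± 0.05 and 0.06 ± 0.05 (adjusted p = 0.16 and 0.33). Sdhb was called, at 86.2, 90.4 and 79.2 FPKM in PF (0.17 ± 0.05, adjusted p = 0.017), a level that overlapped with that in Ctrl. Its adjusted p went up to 0.0615 on leaving out DNP replicate 2, PF replicate 1 or PF replicate 2, and to 0.17 with the mean sum.

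In complex I, 2 of the 7 nuclear-encoded core subunits and 26 of the 28 accessory subunits around them were higher, with medians of 0.13 and 0.25. Ndufs1 was at 43.9, 43.98 and 43.9 FPKM in DNP and 41.5, 41.4 and 43.2 in PF, so all PF values were slightly below, and it was not called (-0.06 ± 0.03, limma adjusted p = 0.18). Ndufs3 gave 0.13 ± 0.06 (adjusted p = 0.095) and Ndufv1 gave 0.05 ± 0.03 (adjusted p = 0.22). Ndufs8 gave 0.18 ± 0.08 (adjusted p = 0.077). The 2 core subunits that were called were Ndufv2, which rose by 0.14 ± 0.04 (adjusted p = 0.012), and Ndufs7, an iron-sulfur protein next to the ubiquinone site. Ndufs7 was at 50.6, 50.8 and 47.4 FPKM in DNP and 64.8, 65.96 and 55.3 in PF, without overlap, the largest rise among the core subunits of complex I (0.31 ± 0.07, adjusted p = 0.0039). Ndufs7 and Ndufs8 were added after their values were seen. With median ratios 5 of the 7 core subunits were higher, and with the mean sum 1 was higher and 1 lower. Over complexes I to V, 13 of 22 core members (median 0.15) and 49 of 53 accessory members (median 0.26) were higher. With the mean sum these counts were 6 and 41, with 2 core members lower, beside 8.42% higher and 41.7% lower over all genes. This division into core and accessory subunits was made after part of the values had been seen, and the difference was not tested.

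The members also took a larger share of the summed FPKM in PF. All 82 together held 2.17% to 2.25% in the Ctrl samples, 2.24% to 2.26% in the DNP samples and 2.46% to 2.54% in the PF samples, so that all PF samples were above all others. The share in PF was 1.11 times that in DNP for all members and 1.16 times for complex III. For complex II it was 0.98 times, from 0.0583% ± 0.000658 (SD, n = 3) to 0.0571% ± 0.000314. The share does not depend on how samples are scaled, but it is taken of each sample's own sum, which was higher in PF. As deposited, the summed FPKM in PF was 1.05 times that in DNP for complex II and 1.19 times for all members.

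**Figure D3:**
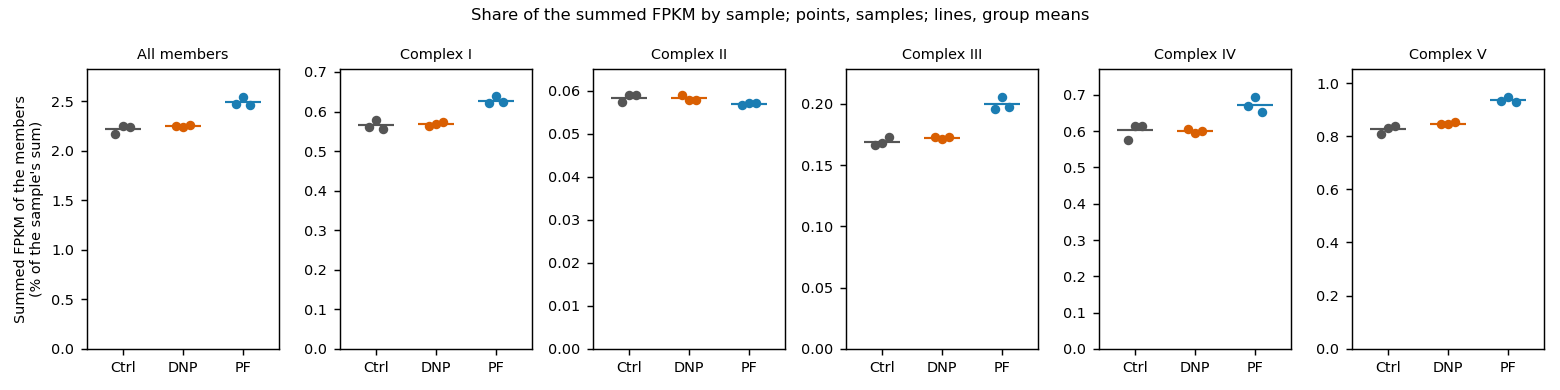
Summed FPKM of the members as a percent of all FPKM of the sample, for all 82 members and for each complex; points are samples, lines are group means, and each axis starts at 0. The 3 PF samples lie above the others for all members together (2.46% to 2.54% against 2.17% to 2.26%) and for complexes I, III, IV and V, and slightly below in complex II.

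Whether the time of stimulation given for the PF samples matters was looked at sample by sample. PF replicate 1, given 4 h in both label fields, was above every DNP sample in 68 of the 75 members, replicate 2 (5 h in one field) in 72 and replicate 3 (6 h in one field) in 67. The same count was not made over all genes, so these counts only set the PF samples side by side. Their median differences from the DNP mean were 0.21, 0.30 and 0.20 on the log2 scale. With PF replicate 1 as the only PF sample, a setting chosen after seeing the data, Cox7a2, Uqcr10 and Atp5mf were above DNP by 0.52, 0.49 and 0.47. Sdhb, Sdhc and Uqcrc2 gave 0.19, 0.09 and 0.09, and Ndufs1, Sdha and Sdhd gave -0.08, -0.02 and -0.02. No conclusion is drawn from calls with 1 PF sample. Replicate 2, the furthest from DNP by the median difference, also had the highest sum of FPKM.

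The third comparison set PF against Ctrl and shares its samples with both others. In it, 52 of the 75 members were higher in limma and 0 were lower, also at an unadjusted p under 0.05, with a median of 0.23, while 23.1% of the 10361 genes tested were higher and 34.6% were lower. With median ratios 64 members were higher (median 0.30), beside 30.4% of all genes higher and 29.1% lower, and with the mean sum 42 were higher (median 0.15), beside 15.2% and 41.7%. Of 4 complex II members, 1 was called, Sdhc (0.14 ± 0.05, limma adjusted p = 0.028), and this call was lost without Ctrl replicate 1 or 2 or PF replicate 1 or 3, with adjusted p up to 0.090, and with the mean sum (adjusted p = 0.33). The highest were Ndufs4, at 38.4, 37.7 and 38.2 FPKM in PF (0.57 ± 0.04, adjusted p = 9.94e-06), Ndufa3 (0.56 ± 0.06, adjusted p = 6.22e-05), Cox7a2 (0.56 ± 0.13, adjusted p = 0.0067), Atp5mf (0.54 ± 0.04, adjusted p = 9.66e-06) and Ndufb10 (0.52 ± 0.04, adjusted p = 1.24e-05). Ndufs4, Ndufa3 and Ndufb10 were also among the members above Ctrl in DNP, so that their levels stood in the order Ctrl, DNP, PF without overlap between neighbours. A fit with PF replicate 1 as the only PF sample was also run, and no conclusion is drawn from its calls.

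Genes that serve the chain were counted in the same way, beside the 18.1% higher and 30.7% lower over all genes. These shares over all genes were 26.7% and 25.2% with median ratios and 8.42% and 41.7% with the mean sum. Of 53 tested assembly factors, which put the complexes together, 13 were higher and 8 were lower in PF than in DNP, with a median of 0.08. With median ratios 20 were higher (37.7%) and 3 lower (5.66%). With the mean sum 7 were higher (13.2%) and 11 lower (20.8%), with a median of -0.01, against -0.13 over all genes. Whether more factors were higher or lower thus depended on the scaling, as it did over all genes. The factors with the largest rise and fall among those called were Fmc1, a complex V factor (0.62, limma adjusted p = 1.77e-05), and Coa7, a complex IV factor (-0.73, adjusted p = 6.57e-05). These and the other genes named in these lists were chosen once their values were known. Of 14 electron carrier genes, 4 were higher in limma and 0 were lower, also at an unadjusted p under 0.05, with a median of 0.06. With the mean sum 1 was higher and 1 lower, with a median of -0.02. As deposited, those higher include cytochrome c (Cycs, 0.18, adjusted p = 0.0024) and the complex III subunit cytochrome c1 (Cyc1, 0.26, adjusted p = 0.0017). Of 17 regulators of mitochondrial biogenesis, 1 was higher and 5 were lower, with a median of -0.07, and these 5 (29.4%) are a share near that over all genes. With median ratios 3 were higher and 5 lower (median -0.01). With the mean sum 1 was higher and 7 lower (41.2%, near the 41.7% of all genes), with a median of -0.15. The 5 include Gabpb1 and Gabpb2, partners of the ETS factor Gabpa (-0.39 and -0.62, adjusted p = 7.46e-04 and 0.0011), and Tfb1m, a mitochondrial rRNA methyltransferase (-0.41, adjusted p = 0.0018).

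Among mitochondrial genes outside the chain, 5 of 13 TCA cycle enzymes were higher in PF than in DNP and 1 was lower, with a median of 0.04. With median ratios 7 were higher (53.8%). With the mean sum 2 were higher and 2 lower (15.4% each), with a median of -0.06, beside 8.42% and 41.7% of all genes. Of 74 mitochondrial ribosomal proteins, 26 were higher and 8 were lower, with a median of 0.10. With median ratios 40 were higher (54.1%) and 5 lower (6.76%). With the mean sum 14 were higher (18.9%) and 11 lower (14.9%), with a median of 0.0026. Genes of cytosolic ribosomal proteins, a list added after values were seen, also rose: 71 of 88 were higher and 3 were lower, with a median of 0.24 (0.14 with the mean sum). They held 21.1% to 21.7% of the summed FPKM in DNP and 23.3% to 24.4% in PF. Their part in the result for the chain was not tested.

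In DNP against Ctrl, where 14.7% of all genes were higher and 14.4% lower, 6 of the 53 assembly factors were higher (11.3%) and 4 lower (7.55%). There were 4 of the 14 carriers higher and 2 lower, 1 of the 17 regulators higher and 3 lower, and 3 of the 13 TCA cycle enzymes higher and 1 lower. Of 75 mitochondrial ribosomal proteins, 17 were higher and 4 were lower, with a median of 0.06. Of the 88 cytosolic ribosomal proteins, 1 was higher and 11 were lower, with a median of -0.08, whereas the chain members had a median of -0.01.

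**Figure D4:**
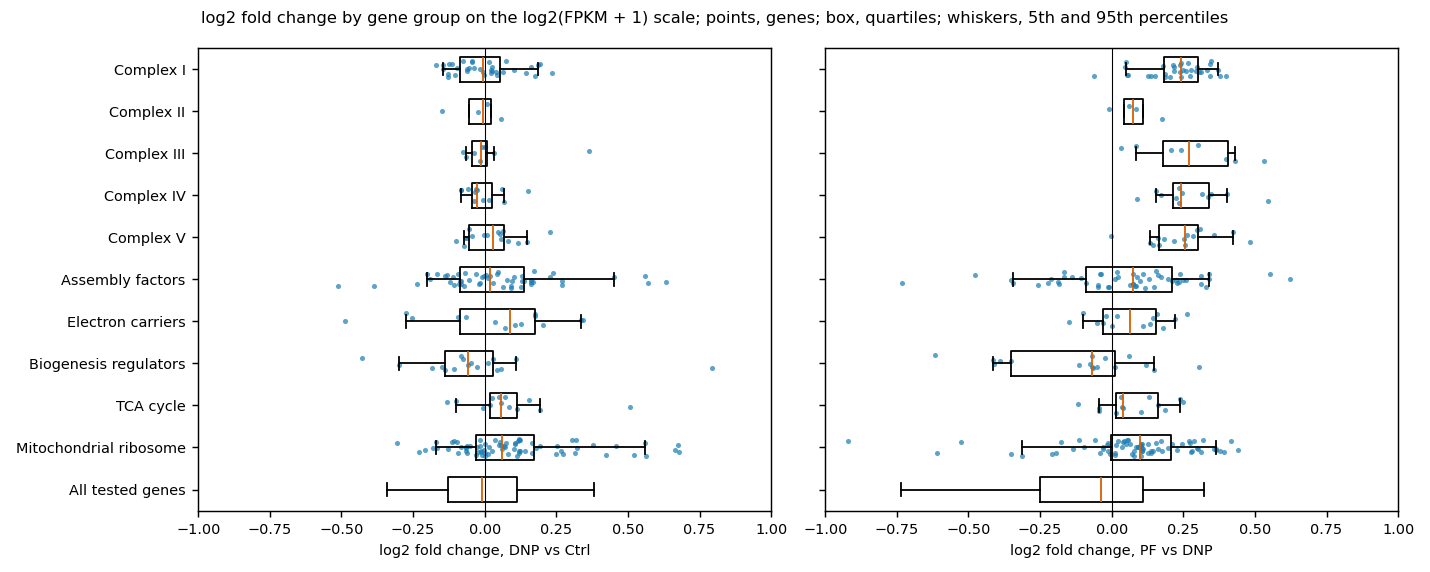
log2 fold change of the tested genes of each group in DNP vs Ctrl (left) and PF vs DNP (right) on the log2(FPKM + 1) scale; points are genes, boxes are quartiles with the median, and whiskers reach the 5th and 95th percentiles. In PF vs DNP the medians of complexes I, III, IV and V lie at 0.24 to 0.27, complex II at 0.07 (-0.03 with the mean sum) and all tested genes at -0.04.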

How the data were processed

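RNA of 9 RBL-2H3 samples, 3 each of Ctrl, DNP and PF, was sequenced. By the methods the sequencer was a BGISEQ-500 and SOAPnuke removed poor reads, while the labels name Illumina library protocols. By the submitters' processing notes, they used HISAT2 2.0.4, Bowtie2 2.2.5 and RSEM 1.2.12 on the build rn6. The authors deposited 1 value per gene and sample, read here as FPKM because values have decimals and sum to different totals, since the heading names no unit. FPKM holds no read counts, so the number of reads behind a value is unknown and precision rests on 3 replicates. No count test could be run. Blank values were left out, which kept 18006 of 38490 rows.

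Each pair of groups was compared on its own 6 samples with limma 3.58.1 in R 4.3.3 (lmFit, then eBayes with trend) on log2(FPKM + 1), a scale that understates changes of low genes. Genes had to reach 1 FPKM in 3 or more of the 6 samples. P-values were adjusted over all genes tested by the Benjamini-Hochberg method, with a threshold of 0.05. An exact permutation test with 3 samples against 3 cannot go below p = 0.1 and was not used. The limma script was tested on simulated data.

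The members and lists were chosen with earlier results of these data known. Described by value were listed core subunits of each complex, subunits with tissue forms, the 5 highest and 5 lowest members in each comparison among those called without overlap, and the 3 highest and 3 lowest by mean. Of the tested members 1 is not reported here by name or in the plots by gene, and it stays in the counts. The lists were assembly factors, electron carriers, biogenesis regulators, TCA cycle enzymes and mitochondrial and cytosolic ribosomal proteins, beside cell markers. Gene names were matched by identifier to RefSeq (GRCr8), which held 81 of the 82 members. Its coordinates are given for promoters only, since its build is not that of the files. Alternatives tried were a pseudocount of 0.1, no filter, scaling by median ratios or to the mean sum, all 9 samples in a fit, a block for the replicate number, leaving out 1 sample at a time, a threshold of 0.01 and, added after seeing the data, the PF sample of 4 h alone.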

Additional observations from a re-analysis of the deposited data

How the results depend on the processing

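In PF vs DNP the number of members higher was 57 to 62 on leaving out 1 sample, against 62 as reported. It was 62 with a pseudocount of 0.1, 58 with no filter, 58 with all 9 samples in a fit and 52 at a threshold of 0.01. No member was lower in these fits. Over all genes 1499 to 1726 were higher on leaving out 1 sample, against 1870 as reported. In the other settings just named, in the same order, 1862, 1620, 1772 and 1101 of all genes were higher. These were out of 17414 genes tested with no filter and 10329 in the others. With each sample scaled to the mean sum 2 members were lower, beside 41.7% of all genes, and Uqcrc2 turned to -0.012 (limma adjusted p = 0.80). In PF vs Ctrl 47 to 53 members were higher on leaving out 1 sample, against 52, and 33 were called, all higher, with the PF sample of 4 h alone. With 1 sample the PF group has no spread of its own, so no conclusion is drawn from these 33 calls. In DNP vs Ctrl, with 12 called as 7 higher and 5 lower, leaving out 1 sample gave 5 to 13 called, 3 to 8 higher and 2 to 5 lower. Over all genes it gave 2099 to 2736 called, against 3031. Without the filter 7 members were called and 2 were lower, and over all genes 2359 and 1140. The number of members lower was also 2 with the mean sum and 2 with all 9 samples in a fit, beside 1279 and 1529 of all genes. At a threshold of 0.01 there were 3 called, 2 higher and 1 lower, and over all genes 1469 in place of 3031. The cause of these shifts was not tested, except that a stricter threshold calls fewer genes by construction.

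Deviations of samples of the same replicate number were at most weakly correlated. The correlations were -0.06, 0.04 and -0.05 in DNP vs Ctrl and 0.01, -0.07 and -0.02 in PF vs DNP. In PF vs Ctrl they were all positive, at 0.09, 0.18 and 0.08. The numbers were not taken as pairs. With the replicate number as a block, 10 members were called in DNP vs Ctrl, of which 3 were lower, 61 in PF vs DNP and 56 in PF vs Ctrl. Over all genes 2697, 4675 and 6009 were called in this setting. Of the genes described by value, those added after their values were seen aside, 21 of 23 called in PF vs DNP, 17 of 20 in PF vs Ctrl and 4 of 11 in DNP vs Ctrl were called whichever sample was left out. Changes of sign below the threshold in both settings were not counted as reversals. FPKM without read counts gives no counting error, so differences under the spread of 3 replicates cannot be seen.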

Other observations

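A few chain genes stand under other symbols in the files and were not selected, and all of these values were looked up after the members had been analysed. Ndufab1, the mitochondrial acyl carrier protein, which is a subunit of complex I and also serves lipoic acid and iron-sulfur cluster synthesis, was at 75.5, 81.1 and 85.9 FPKM in Ctrl, 108, 103 and 108 in DNP and 129.9, 137 and 126 in PF. The 3 groups do not overlap. It rose from Ctrl to DNP by 0.39 ± 0.05 on the log2 scale (limma adjusted p = 0.0010) and from DNP to PF by 0.30 ± 0.04 (adjusted p = 3.15e-04). Its difference between DNP and Ctrl was larger than that of any of the 75 tested members, whose highest was Uqcrc2 at 0.36.

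Usmg5, which RefSeq calls Atp5mk, a small membrane subunit of complex V, was at 193, 205 and 216 FPKM in DNP and 265, 280.1 and 253 in PF (log2 fold change 0.38 ± 0.05, limma adjusted p = 3.29e-04). The gene that RefSeq calls Ndufs6, a complex I subunit, gave 0.04 ± 0.07 (adjusted p = 0.64) and was not called. Of the rows that RefSeq calls pseudogenes, Ndufs5-ps2 differed between PF and DNP by 0.35 ± 0.04 (adjusted p = 1.61e-04), where Ndufs5 itself differed by 0.29 ± 0.05 (adjusted p = 0.0021), and Uqcr10-ps1 differed by 0.53 ± 0.08 (adjusted p = 8.28e-04), where Uqcr10 differed by 0.53 ± 0.04. The copy Atp5mk-ps2, with a mean of 53.3 FPKM, overlapped between PF and DNP and was not called (0.19 ± 0.12, adjusted p = 0.21), while Usmg5 was. Whether gene and copy differed from each other was not tested. Reads of gene and copy cannot be told apart in these files.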
